A study of Homo sapiens with 8 samples.

Results

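The late cornified envelope genes of group 1 (LCE1A to LCE1F), the single-gene groups LCE5A and LCE6A, and CRCT1 (cysteine-rich C-terminal 1) were followed in esophageal epithelial cultures with and without a hairpin RNA against HIF1A. These 9 genes were taken by symbol, and all 9 were found among the 25369 genes of the deposited table. They also all passed the filter that left 11899 genes for testing, which was at least 0.5 RPKM (reads scaled to gene length and to the size of the library) in at least 4 libraries.

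All 9 genes lie in the epidermal differentiation complex on chromosome 1, a cluster of genes that are switched on late as keratinocytes of a stratified epithelium move to the surface. LCE genes encode small proteins rich in cysteine and glycine, which transglutaminases cross-link into the cornified envelope that replaces the plasma membrane of the outermost cells. Group 1 is best known from the epidermis, where it is expressed late in differentiation, whereas the esophageal surface is normally not cornified. CRCT1 is a small cysteine-rich gene of the same complex that is not an LCE gene and is known for its expression in esophageal epithelium.

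The cells were EPC2-hTERT, a human esophageal epithelial line immortalised with telomerase, and both groups carried a hairpin RNA delivered by lentivirus. It was a control (shCtrl) or targeted HIF1A (HIF1A-KD), with 4 libraries each, numbered 1 to 4 in the labels. All were kept in serum-free keratinocyte medium with bovine pituitary extract and epidermal growth factor. Every culture grew for 2 days on membranes with 0.4 µm pores, then for 5 days at 1.8 mM calcium chloride, and finally for 4 days exposed to air. The labels also mention the solvent DMSO and the hydroxylase inhibitor dimethyloxalylglycine and tie neither to a library. They do not say whether libraries came from separate cultures, so p-values measure the spread between these libraries, which may in part be technical.

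The libraries held 38068729 to 65326907 reads, as implied by the deposited values. HIF1A was below its same-numbered control in 4 of 4 pairs, with a log2 change of −1.34 (SE 0.37) that passed only when the library number was a block (limma adjusted p = 0.319 without it and 0.0253 with it). The blocked call was lost without pair 1 (limma adjusted p = 0.107), pair 2 (0.187) or pair 4 (0.0524). Basal keratinocyte markers were high throughout, with KRT5, KRT14, TP63, ITGA6 and COL17A1 summing to 8139 to 12009 RPKM in shCtrl and 9195 to 11106 RPKM in HIF1A-KD. The sum of the esophageal suprabasal markers KRT4, KRT13, CRNN, MAL and ECM1 was 598 to 2839 RPKM in shCtrl and 3233 to 4650 RPKM in HIF1A-KD. For the epidermal suprabasal markers KRT1, KRT10, KRT2 and LOR it was 300.3 to 556 and 673 to 2231 RPKM, although LOR, which encodes the envelope protein loricrin, went the other way in its means, at 19.2 ± 17.8 RPKM for shCtrl against 3.93 ± 4.47 RPKM for HIF1A-KD (both SD, n = 4). Its log2 change of −2.92 did not pass (limma adjusted p = 0.659 without and 0.169 with the block) and was below 0 in 4 of 4 pairs. Library shCtrl 1 was the lowest of all 8 for the esophageal list. Of 6 fibroblast markers 5 were under 0.5 RPKM in every library, the exception being COL1A1, and the sum was 21.2 to 27.7 RPKM in shCtrl and 14.1 to 19.2 RPKM in HIF1A-KD. PTPRC, CD3E, MLANA and TYR were at 0 throughout. Only CD68 of the leukocyte list, VWF of the endothelial list and PMEL of the melanocyte list reached 0.5 RPKM. The whole leukocyte list summed to 23.5 to 115 RPKM in shCtrl and 19.1 to 85.8 RPKM in HIF1A-KD. The endothelial sum was 0.748 to 15.4 and 1.39 to 12.8 RPKM, and the melanocyte sum 0.342 to 0.900 and 0.260 to 1.95 RPKM. Whether these shifts have a part in the results below was not tested.

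CRCT1 was by far the most abundant of the 9 genes and was lower after HIF1A knockdown in each of the 4 pairs of same-numbered libraries. It lies on the plus strand of chromosome 1 at 152486978 to 152488481 (hg19), and the table gives it a length of 695 bases. Its level was 5776, 2419.8, 1285 and 1223 RPKM in shCtrl 1 to 4, compared with 2067, 1271, 292 and 437 RPKM in HIF1A-KD 1 to 4. Libraries HIF1A-KD 3 and 4 lay below every shCtrl library, whereas HIF1A-KD 1 and 2 lay above shCtrl 4, so the groups overlapped. In shCtrl 1 the gene took 0.401% of all reads and ranked 9 among all genes by RPKM. In HIF1A-KD 3 it took 0.0203% and ranked 204. The shCtrl mean was 2676 ± 2139 RPKM (SD, n = 4). The mean of HIF1A-KD was 1017 ± 822 RPKM (SD, n = 4), or 38.0% of it. Without shCtrl 1 the shCtrl mean was 1642 RPKM and HIF1A-KD stood at 61.9% of it.

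The log2 change of CRCT1 was −1.51 (SE 0.69) and did not pass the unpaired test (limma adjusted p = 0.672). With the library number as a block its SE was 0.19 and it passed (adjusted p = 0.0224). The differences between same-numbered libraries were −1.48, −0.93, −2.14 and −1.48 on the log2(RPKM + 0.1) scale, a narrower span than that of any other of the 9 genes. The blocked call was lost without pair 1 (log2 change −1.52, adjusted p = 0.112), pair 2 (−1.70, 0.0734) or pair 4 (−1.52, 0.0509), and stood without pair 3 (−1.3, 0.0196). Among libraries 1 and 2 the change was −1.21 and among libraries 3 and 4 it was −1.81. In bulk RNA, fewer cells with the transcript and less transcript per cell cannot be told apart, which holds for every gene described here.

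**Figure D1:**
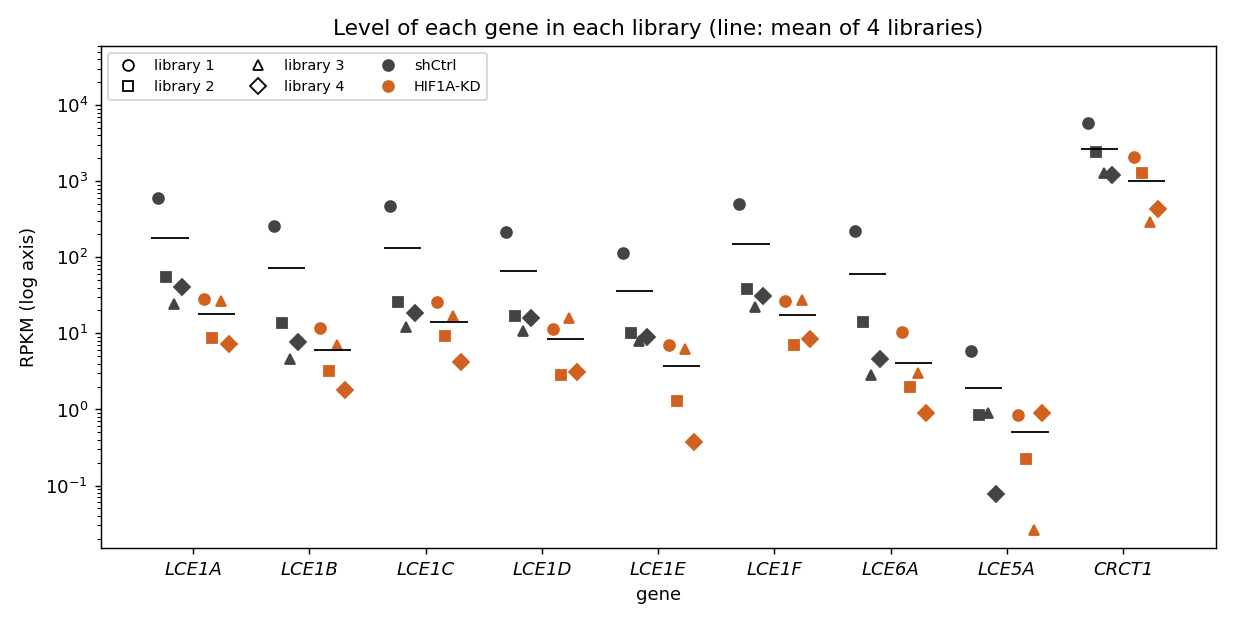
RPKM of the 9 genes in each library on a log axis, with shCtrl in grey, HIF1A-KD in orange, a marker shape for each library number and a line at each group's mean. Library shCtrl 1 is the highest of the 8 libraries for all 9 genes, and only for LCE1E do all HIF1A-KD libraries lie below all shCtrl libraries.

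Of all 11899 tested genes, 5 (0.042%) passed the unpaired test, 3 higher and 2 lower, or 3 higher and 5 lower after median-of-ratios scaling, and none of the 9 genes was among them. At an unadjusted p of 0.05, 2 of the 9 genes and 928 genes in all lay under the threshold. With the number as a block 218 genes passed (1.83%), of which 130 were lower (1.09%), and CRCT1 was the only 1 of the 9. All 9 estimates were below 0, with a median log2 change of −2.05, whereas 41.3% of all tested genes were below 0 and their median was 0.064. HIF1A-KD was lower in all 4 pairs for CRCT1 and LCE1E, and in 3 of 4 for the other 7 genes. Of all tested genes 10.7% were lower in all 4 pairs. The tally depends on the uncertain pairing of numbers 3 and 4. With these crossed, an alternative chosen after seeing the data, all 9 genes were lower in all 4 pairs, as were 14.3% of all tested genes. Some of these differences were slight, with LCE1D at 15.9 RPKM in HIF1A-KD 3 against 16.1 RPKM in shCtrl 4. LCE5A held 0.898 RPKM in HIF1A-KD 4 against 0.909 RPKM in shCtrl 3. In HIF1A-KD 3 it rested on 1 read, against 3 reads in shCtrl 4.

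The 6 LCE1 genes were all far higher in shCtrl 1 than in any other library, and in the other 7 libraries none exceeded 55.0 RPKM. LCE1A, which had the highest mean of the 6, held 604, 55.0, 24.6 and 40.7 RPKM in shCtrl 1 to 4 and 28.1, 8.79, 26.9 and 7.36 RPKM in HIF1A-KD 1 to 4. Library shCtrl 1 stood at 11 times the next shCtrl library, while HIF1A-KD 1 and 3 lay between shCtrl 3 and shCtrl 4. The log2 change was −2.34 (SE 0.93, adjusted p = 0.561 without and 0.157 with the block), and −1.35 without shCtrl 1.

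LCE1F followed closely, at 503, 38.4, 22.1 and 30.6 RPKM in shCtrl and 26.8, 7.12, 27.1 and 8.43 RPKM in HIF1A-KD. LCE1C held 466, 25.9, 12.3 and 18.4 RPKM in shCtrl against 25.5, 9.21, 16.9 and 4.23 RPKM, and LCE1D held 218, 16.9, 10.7 and 16.1 RPKM against 11.4, 2.81, 15.9 and 3.12 RPKM. LCE1B held 262, 13.6, 4.64 and 7.81 RPKM in shCtrl and 11.9, 3.23, 6.94 and 1.80 RPKM in HIF1A-KD. In all 4 genes HIF1A-KD 3 exceeded shCtrl 3, and HIF1A-KD 2 and 4 lay below every shCtrl library. Their log2 changes were −2.05 (SE 0.94) for LCE1F, −1.83 (SE 1.07) for LCE1C, −2.14 (SE 0.96) for LCE1D and −1.99 (SE 1.16) for LCE1B. None passed either fit, with adjusted p of 0.649 to 0.783 without and 0.189 to 0.241 with the block.

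LCE1E was the only 1 of the 9 whose groups did not overlap. It held 115, 10.3, 7.88 and 8.91 RPKM in shCtrl and 7.12, 1.3, 6.24 and 0.379 RPKM in HIF1A-KD, where HIF1A-KD 4 rested on 17 reads. Libraries HIF1A-KD 1 and 3 lay just under the lowest shCtrl library, and HIF1A-KD 2 and 4 well below it. Its log2 change was −2.86 (SE 1.07, adjusted p = 0.515 without and 0.101 with the block). Of all tested genes 2.13% had every HIF1A-KD library below every shCtrl library.

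Without shCtrl 1 the change of the LCE1 genes was smaller by more than 1.5 times for 5 of the 6, at −0.65 for LCE1C, −0.74 for LCE1B, −1.03 for LCE1F, −1.15 for LCE1D and −1.35 for LCE1A, and −1.95 for LCE1E. The shCtrl mean of the summed LCE1 level was 633 RPKM with that library and 122 RPKM without it, and the HIF1A-KD mean of 67.2 RPKM was 10.6% and 55.3% of these. The median LCE1 change was −3.36 among libraries 1 and 2 and −0.85 among libraries 3 and 4. Between the libraries numbered 3 the summed LCE1 level was higher in HIF1A-KD by 0.28 on the log2 scale, while in pairs 1, 2 and 4 it was lower, at −4.29, −2.30 and −2.27. That exception holds only with the numbers as given, since the sum was 82.1 RPKM in shCtrl 3 against 25.3 RPKM in HIF1A-KD 4, and 122 RPKM in shCtrl 4 against 100.01 RPKM in HIF1A-KD 3.

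**Figure D2:**
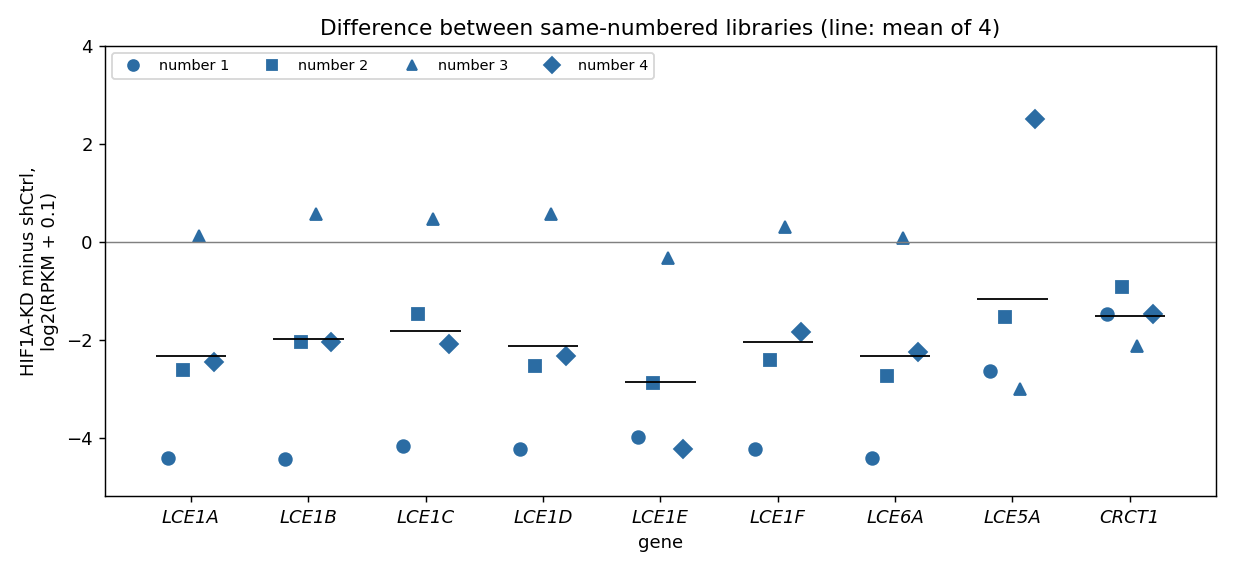
HIF1A-KD minus shCtrl on the log2(RPKM + 0.1) scale for the libraries of each number, by gene, with a line at the mean of the 4 differences. For the LCE1 genes and LCE6A number 1 lies near −4 and number 3 is the highest, near 0, whereas for CRCT1 the 4 numbers lie between −2.14 and −0.93.

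The upstream sequences of 4 LCE1 genes are shown because they share exact blocks. LCE1A, whose levels over the libraries lay close to those of LCE1F and LCE1D, also has an entry. It holds neither block in the 250 bases before its annotated start, and no other stretch was searched. RefSeq entries were matched for 7 of the 9 genes. The 250 bases before the annotated start of LCE1C, LCE1D, LCE1E and LCE1F (GRCh38.p14) are printed 5′ to 3′ on the gene's strand, with capitals for the runs of at least 12 bases that all 4 hold.
LCE1C (chr1:152806652-152806901, minus strand): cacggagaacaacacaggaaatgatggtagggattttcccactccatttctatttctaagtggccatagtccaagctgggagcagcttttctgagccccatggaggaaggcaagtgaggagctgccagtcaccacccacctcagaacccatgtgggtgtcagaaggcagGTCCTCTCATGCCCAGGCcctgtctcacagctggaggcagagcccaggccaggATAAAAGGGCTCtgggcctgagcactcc
LCE1D (chr1:152796471-152796720, plus strand): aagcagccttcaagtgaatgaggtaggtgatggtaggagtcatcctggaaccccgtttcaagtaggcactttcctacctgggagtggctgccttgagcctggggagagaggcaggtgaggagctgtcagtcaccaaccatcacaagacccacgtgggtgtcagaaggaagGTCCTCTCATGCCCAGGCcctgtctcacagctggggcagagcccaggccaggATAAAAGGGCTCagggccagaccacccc
LCE1E (chr1:152786007-152786256, plus strand): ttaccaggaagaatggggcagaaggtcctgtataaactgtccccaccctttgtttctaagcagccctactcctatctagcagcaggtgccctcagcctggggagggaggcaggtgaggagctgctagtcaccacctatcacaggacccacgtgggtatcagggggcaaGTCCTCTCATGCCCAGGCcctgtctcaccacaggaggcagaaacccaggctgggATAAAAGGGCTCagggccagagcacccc
LCE1F (chr1:152774890-152775139, plus strand): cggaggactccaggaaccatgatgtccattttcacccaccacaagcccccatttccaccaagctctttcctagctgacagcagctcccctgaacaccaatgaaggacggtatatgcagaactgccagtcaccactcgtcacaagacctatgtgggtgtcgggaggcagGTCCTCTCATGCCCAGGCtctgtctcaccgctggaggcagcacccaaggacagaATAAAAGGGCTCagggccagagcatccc
The first run in capitals, of 18 bases, begins 80 to 82 bases before the start. It was found on either strand in 4 of 35116 promoter windows of the same length (0.0114%), which were those of these 4 genes. The second, of 12 bases, begins 28 bases before the start in each of the 4, at the usual distance of a TATA-like element. It was in 6 windows (0.0171%), the other two being those of CSKMT and LCE3C. Position by position, without gaps, the 50 bases next to the start were 70% to 86% identical between pairs of these genes, and the whole 250 bases were 32.8% to 56.8% identical.

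Motifs were searched on both strands of the 250 bases in the 7 genes with an entry. ACGTG, a form of the core of the hypoxia response element, was present in LCE1D and LCE1E and in 18.5% of all promoters. In both genes it lay on both strands as the palindrome CACGTG. LCE1C, LCE1F, LCE1A, LCE5A and LCE6A did not hold ACGTG in this window, and other forms of the core were not searched. TATAAA was found in LCE6A and LCE5A at 29 and 31 bases before the start, and farther upstream in LCE1A and LCE1E, against 10.7% of all promoters. CCACCC, bound by KLF and Sp factors, was in LCE1A, LCE1C, LCE1D and LCE1E (31.3% of all promoters), and CCAAT in LCE1F and LCE6A (32.0%). TGANTCA (AP-1) and TTNNGCAAT (C/EBP) were in 0 of the 7, against 6.57% and 2.04% of all promoters. Such matches are a description of the letters and do not show binding.

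The make-up of the LCE1 transcripts varied less than their sum. LCE1A supplied 25.3% to 34.3% of the summed LCE1 RPKM in the 8 libraries and LCE1F 21.9% to 33.3%, although the sum itself ran from 25.3 RPKM in HIF1A-KD 4 to 2168 RPKM in shCtrl 1. LCE1C supplied 14.9% to 28.4%, LCE1D 8.67% to 15.9% and LCE1B 5.65% to 12.1%. LCE1E had the smallest share, at 7.15% ± 1.81 (SD, n = 4) in shCtrl and 4.54% ± 2.31 (SD, n = 4) in HIF1A-KD, with overlapping ranges and 1.5% in HIF1A-KD 4. By level, LCE1A and LCE1F could not be ordered beyond their spread, since LCE1A was higher in 6 of 8 libraries with a mean log2 ratio of 0.19 ± 0.23 (SD). LCE1F was above LCE1C in 7 of 8 libraries and LCE1C above LCE1D in all 8. LCE1B and LCE1E had like medians over the 8 libraries, 7.37 and 7.50 RPKM, and LCE1E was the higher in 2.

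**Figure D3:**
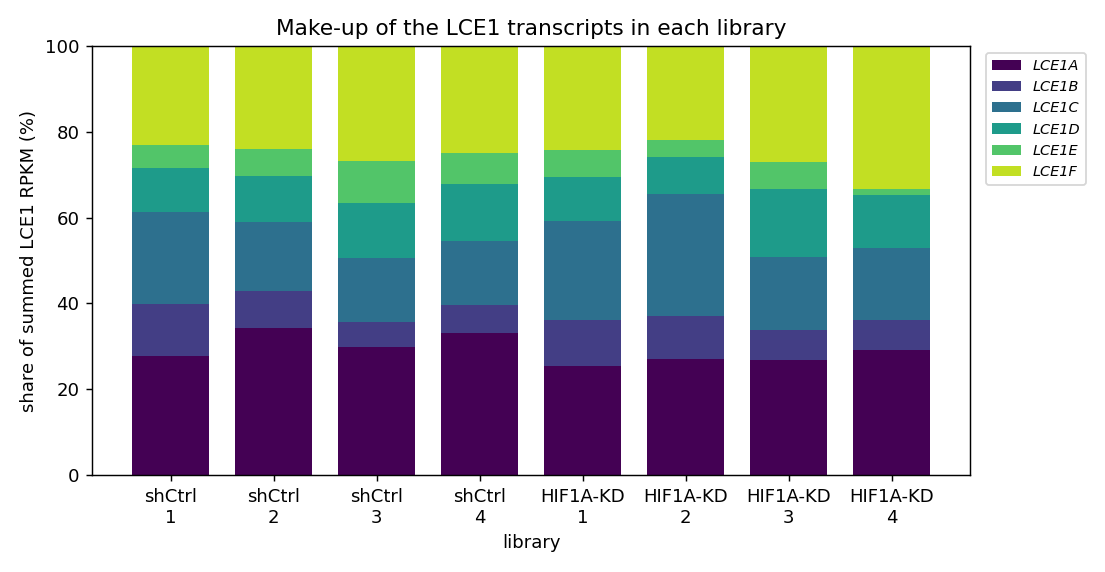
Share of each LCE1 gene in the summed LCE1 RPKM of each library, in percent, as stacked bars. LCE1A and LCE1F are the largest shares in most libraries, LCE1C is the largest in HIF1A-KD 2, and the share of LCE1E is lowest in HIF1A-KD 4.

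The LCE1 transcripts resemble each other, so single values depend on how the authors' counting treated reads that fit more than 1 gene. Of all 50-base words in the longest GENCODE transcript, 18.2% in LCE1A, 18.7% in LCE1C and 19.9% in LCE1D also occurred in another gene. The genes that shared the most words were other LCE1 genes, and any beyond those were not listed. The shares were 9.20% in LCE1E, 5.96% in LCE1B and 5.19% in LCE1F. The searched transcripts of LCE1A and LCE1F had 422 and 357 bases, shorter than the lengths of 625 and 598 bases behind their RPKM. Those of LCE1C and LCE6A were also shorter, at 644 and 628 against 695 and 642 bases. For these genes the shares do not cover all of the counted length. For CRCT1, LCE5A and LCE6A 0 of 651, 770 and 579 words were shared, so these 3 genes are told apart at that length.

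LCE6A, which lies 14.8 kb beyond LCE1A, followed the LCE1 genes. It held 223, 14, 2.85 and 4.66 RPKM in shCtrl 1 to 4 and 10.3, 2.00, 3.00 and 0.900 RPKM in HIF1A-KD 1 to 4. As with the LCE1 genes, shCtrl 1 stood far above the rest, at 15.9 times the next library, and HIF1A-KD 3 was level with shCtrl 3. The log2 change was −2.34 (SE 1.27, adjusted p = 0.759 without and 0.157 with the block), and −1.02 without shCtrl 1.

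LCE5A, 2.32 kb from CRCT1 at the other end of the cluster, was the least abundant of the 9 and ordered the libraries differently. It held 5.85, 0.848, 0.909 and 0.0767 RPKM in shCtrl and 0.856, 0.224, 0.0259 and 0.898 RPKM in HIF1A-KD. In reads these were 232, 30, 39 and 3 against 32, 12, 1 and 28. The lowest values were thus in shCtrl 4 and HIF1A-KD 3, both at or under 3 reads (0.0767 and 0.0776 RPKM), and HIF1A-KD 4 was above shCtrl 4. Its log2 change of −1.17 (SE 1.06) did not pass (adjusted p = 0.913 without and 0.535 with the block), and was −0.32 without shCtrl 1. Without pair 4 the blocked fit gave −2.40 (adjusted p = 0.0483).

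The gene pairs compared within libraries were CRCT1 with LCE1A, CRCT1 with LCE3D, an abundant LCE gene of the same cluster, and LCE1A with LCE3D. The log2 ratio of CRCT1 to LCE3D was −0.41, 0.32, 0.78 and 0.59 in shCtrl 1 to 4 and 0.91, 1.76, 1.00 and 1.40 in HIF1A-KD 1 to 4, with no overlap. It was higher in HIF1A-KD by 0.95, and higher in 4 of 4 pairs. A two-sided exact permutation test gave p = 0.0286, the smallest possible, and 0.0857 after adjustment over the 3 ratios, which did not pass. A ratio that is alone at the smallest possible p cannot pass this adjustment. The adjusted test therefore cannot decide whether CRCT1 and LCE3D changed by unlike amounts. Taking the numbers as pairs, an exact sign-flip test cannot go below p = 0.125.

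The ratio of CRCT1 to LCE1A did not separate the groups. Its log2 value was 3.26, 5.46, 5.70 and 4.91 in shCtrl and 6.20, 7.16, 3.44 and 5.87 in HIF1A-KD (difference 0.84, exact permutation p = 0.371, adjusted 0.557), and HIF1A-KD 3 and shCtrl 1 were the low libraries. The difference was 2.32 among libraries 1 and 2 and −0.65 among libraries 3 and 4. In RPKM, CRCT1 stood at 2.66 to 15.6 times the summed LCE1 level in shCtrl and at 2.92 to 39.2 times in HIF1A-KD. LCE1A against LCE3D differed by 0.11 (exact permutation p = 0.943), and HIF1A-KD 3 stood highest at −2.44 against −5.40 to −3.67 elsewhere.

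**Figure D4:**
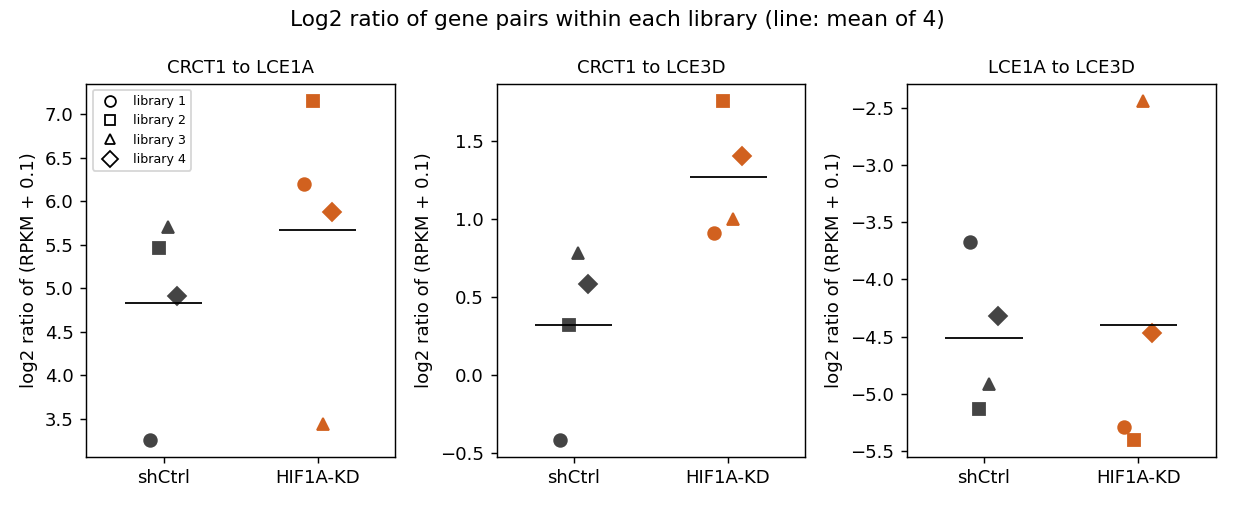
Log2 ratio of (RPKM + 0.1) between 2 genes within each library, for the 3 gene pairs compared, with a line at each group's mean and a marker shape for each library number. The groups part for CRCT1 to LCE3D only, where shCtrl ends at 0.78 and HIF1A-KD begins at 0.91, and for CRCT1 to LCE1A shCtrl 1 and HIF1A-KD 3 are the low libraries.

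In position, the 9 genes form a pair and a block within the LCE stretch. LCE5A (152483320 to 152484653, hg19, plus strand) and CRCT1 open it, and 260 kb farther on the order is LCE1F (152748848 to 152749445), LCE1E (152758753 to 152760901), LCE1D (152769227 to 152770657), LCE1C (152777311 to 152779107, the only 1 of the 9 on the minus strand), LCE1B (152784447 to 152785585), LCE1A (152799949 to 152800573) and LCE6A (152815330 to 152816459). All are annotated as protein-coding. The stretch from LCE5A to LCE6A spans 333 kb, and all 17 genes tested in it had estimates below 0.

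Of the other LCE genes in that stretch, LCE2A (log2 change −3.68) and LCE2C (−3.41) of 4 tested LCE2 genes, and LCE3D (−2.45) and LCE3E (−2.43) of 3 tested LCE3 genes, fell in the blocked fit, and 0 passed unpaired. LCE2B (−3.01), LCE2D (−2.76) and LCE3A (−1.64) did not pass. The median changes were −3.21 for LCE2 and −2.43 for LCE3, against −2.09 for LCE1. Among libraries 3 and 4 they were −2.11 and −2.17, against −0.85 for LCE1, a difference that was not tested. These genes too were highest in shCtrl 1, at 11.8 times the next shCtrl library for summed LCE2 and 3.88 times for summed LCE3. Leaving shCtrl 1 out moved the log2 change of the sum from −3.02 to −1.98 for LCE2 and from −2.43 to −1.73 for LCE3. For the LCE1 sum it moved from −2.14 to −1.09. LCE4A was too low to test.

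Beyond LCE6A the estimates no longer lay on 1 side. Of 10 listed and tested SPRR genes, which encode small proline-rich envelope proteins, SPRR1A rose (1.37) and SPRR2G fell (−2.35) in the blocked fit. The median was −0.23 over the list, which leaves out SPRR2C (0.25), a tested gene that did not pass. The abundant SPRR1B (−0.14), SPRR2E (−0.32) and SPRR2D (−0.33) did not pass. Of 6 other tested genes of the complex, some of them outside this interval, PRR9 fell in the blocked fit (−3.80). IVL, which encodes the early envelope protein involucrin (0.31), PGLYRP3 (0.08), and KPRP of the LCE stretch (−2.38) did not pass. For PRR9 and KPRP shCtrl 1 was also far up, at 6.54 and 11.9 times the next shCtrl library.

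The remaining listed genes, which lie outside the stretch from LCE5A to LOR but not all outside the complex, gave no common direction. Of the 4 tested genes of the S100-fused family 0 passed either fit, among them CRNN (1.42), RPTN (−0.05) and FLG (−0.45). Of 7 cross-linking and scaffold genes only CDSN fell in the blocked fit (−2.72), and CSTA (0.50), PPL (0.29) and the transglutaminase TGM1 (−0.43) did not pass. Of 11 transcription factors known to act on terminal differentiation 0 passed either fit, with KLF4 (0.32), GRHL3 (0.07) and ZNF750 (0.65) the most abundant and a median of 0.29.

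**Figure D5:**
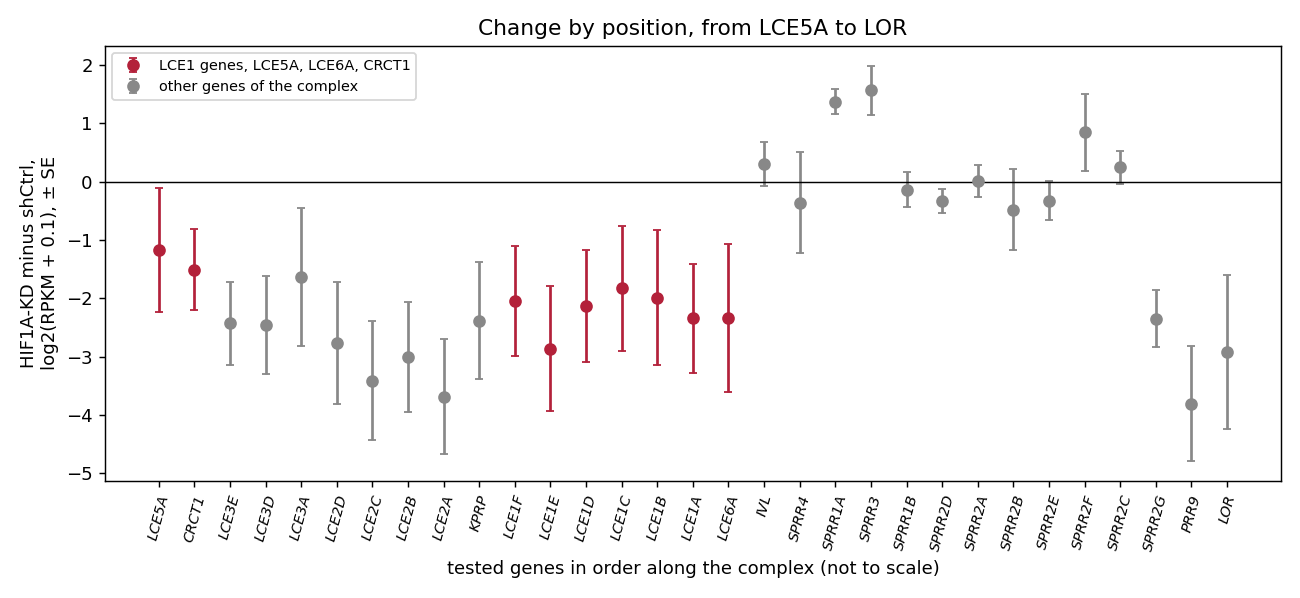
Log2 change (HIF1A-KD minus shCtrl, ± SE of the unpaired fit) of the tested genes in their order from LCE5A to LOR, with the 9 genes in red. All genes from LCE5A to LCE6A lie below 0, and the involucrin and SPRR genes that follow lie on both sides of it.

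The genes most like CRCT1 over the 8 libraries lay outside the complex, whereas those most like LCE1A outside the 9 genes included LCE2D and KPRP of the same stretch. Likeness was the root mean square difference of log2(RPKM + 0.1) after each gene was centred on its own mean, over 11482 genes, and the 9 genes themselves were left out of the ranking. For CRCT1, whose own spread was 1.27, the closest were SMPD3, a sphingomyelinase gene (0.29), PLA2G2F, a secreted phospholipase gene (0.36), CNFN, which encodes cornifelin (0.40), and GSDMA, a gasdermin gene (0.42). SMPD3 and GSDMA also fell in the blocked fit, with log2 changes of −1.33 and −2.13. For LCE1A, with a spread of 1.83, the closest outside the 9 were LCE2D (0.35), NPR2 (0.48), KPRP (0.51) and GLRX (0.57). Within the 9, LCE1F (0.22) and LCE1D (0.27) lay closer to LCE1A than any of these, the other LCE1 genes 0.42 (LCE1C) to 0.66 (LCE1E) and LCE6A 0.69 from it, while CRCT1 lay 1.25 and LCE5A 1.59 from it. No likeness value was recomputed without shCtrl 1, the highest library for all 9 genes, so its part in them was not tested. The likeness values are descriptions and carry no p.

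The authors' deposited table, made from the same libraries and therefore no independent evidence, lists all 9 genes as lower in HIF1A-KD. An adjusted p under 0.05 is given for 7 of them in the authors' deposited table, where 5.08% of 13627 genes are called lower. For CRCT1 the authors' deposited table gives −1.37 as its moderated log2 value (adjusted p = 2.05e-10). The moderated changes of the LCE1 genes run from −0.996 to −0.785 in the authors' deposited table, against plain values of −3.70 to −3.09, and LCE1D (adjusted p = 0.0581) and LCE5A (0.416) are not called there. These plain values are ratios of group means, to which shCtrl 1 contributes most, and are not the same measure as the mean log2 differences given above.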

How the data were processed

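RNA was sequenced from 8 libraries. Per the submitters' processing notes the tools included TopHat2 2.0.13, Bowtie2 2.2.3.0 and HTSeq 0.6.1, with hg19 and hg38 both named; the coordinates in the table are those of hg19. Whether counting used strand is unstated. The expression values are RPKM made by the authors, although the file is named for counts. Multiplied by gene length they gave whole reads, within 0.01 read, for 100% of values above 0 with a readable length (597 genes had none), so depth is known. The authors' deposited comparison gives mean scaled signal, fold ratios, log2 fold changes and p-values; no source here names its tool.

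Values were put on the log2(RPKM + 0.1) scale and tested with limma 3.58.1 in R 4.3.3 (moderated with trend and robust options, two-sided, no block), adjusted by Benjamini and Hochberg over 11899 genes at 0.05. Fold changes on this scale understate those of low genes. Deviations from group means correlated across genes between same-numbered libraries at 0.754, 0.730, 0.252 and 0.257, all over 0.1, so the number was taken as a pairing; this comes from the values, as no label states it. Numbers 3 and 4 are uncertain: the crossed correlations were 0.463 (shCtrl 3, HIF1A-KD 4) and 0.613 (shCtrl 4, HIF1A-KD 3), both above the same-numbered ones. The blocked fit was run only with the numbers as labelled. Every blocked call, CRCT1 and HIF1A included, rests on that pairing, which was chosen from the same values. Other fits changed the pseudocount, filter, scaling, block or libraries, or used limma-voom on the recovered reads. The code was tested on simulated counts. All 9 genes are named; of other lists, the 3 most abundant members and up to 3 called ones; and the 4 genes most like CRCT1 and LCE1A, leaving out the 9 genes and names such as LOC, LINC, MIR or SNOR. The genes and lists were chosen with earlier results of these data known. Promoters are RefSeq's; transcripts are GENCODE's.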

Additional observations from a re-analysis of the deposited data

Results flagged for a closer look

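Library shCtrl 1 was far above the other 3 shCtrl libraries for 8 of the 9 genes, CRCT1 being the exception by this measure. The gap to the next library, as a share of the group's whole range in RPKM, was 0.948 for LCE1A, 0.965 for LCE1B, 0.970 for LCE1C and LCE1D, 0.978 for LCE1E, 0.966 for LCE1F, 0.949 for LCE6A, 0.856 for LCE5A and 0.963 for the summed LCE1 level. All exceed Dixon's 95% critical value for 4 samples. For normally distributed values chance alone passes this limit in about 1 of 20 groups, a rate that need not hold in RPKM. These genes share the same library, so they are not separate observations. On the log2(RPKM + 0.1) scale 2 of 18 gene and group combinations passed it, LCE1D (0.848) and LCE1E (0.902), again for shCtrl 1. No HIF1A-KD library passed it on either scale.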

How the results depend on the processing

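All 9 genes and HIF1A kept estimates below 0 under every alternative run. The number of genes called, 5 in the main test, was 3 with a pseudocount of 1 or 0.01, 1 without the filter, 8 after median-of-ratios scaling, 3 with limma-voom, 102 with libraries 1 and 2 against 3 and 4 as a term, 0 with libraries 1 and 2 alone, and 0 to 3 without a single library. With the replicate block it was 218, and 33, 1, 195 and 182 without pair 1, 2, 3 or 4. Of the 9 genes 0 were called in every unpaired fit, 1 with the block (CRCT1, log2 change −1.51, adjusted p = 0.0224, with HIF1A at −1.34), and 0 to 2 with the block and a pair left out, where CRCT1 ran from −1.70 to −1.30 and HIF1A from −1.55 to −1.20. With the block, LCE1E passed without pair 3 (−3.71, adjusted p = 0.0103) and LCE5A without pair 4 (−2.40, 0.0483). The block changed no other call among the 9 genes with the numbers as labelled, and was not fitted with numbers 3 and 4 crossed. Across the unpaired alternatives the adjusted p of CRCT1 ran from 0.0668 to 0.999. The CRCT1 to LCE1A difference was 2.32 in libraries 1 and 2 and turned to −0.65 in libraries 3 and 4, and ran from 0.31 to 1.58 without a single library. The LCE1A to LCE3D difference turned to −0.94 in libraries 1 and 2, and also when 1 library was missing: −0.10 (shCtrl 2), −0.02 (shCtrl 3) or −0.54 (HIF1A-KD 3), within a range of −0.54 to 0.44 when a library was left out. LCE5A had no value at 1 RPKM in 4 libraries, where the filter removed it. The cause of these shifts was not tested, and depth limits LCE5A, and LCE1E in HIF1A-KD 4.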
